A study of Mus musculus with 12 samples.

Results

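The genes described here are the fibroblast growth factor (FGF) receptors and ligands that the count table of B16F10 melanoma cells was searched for by name. There are 9 of them among 54232 genes, comprising 5 receptor genes (Fgfr1, Fgfr2, Fgfr3, Fgfr4 and Fgfrl1) and 4 ligand genes (Fgf2, Fgf7, Fgf10 and Fgf21), and all 9 were found. Of these, 7 passed the filter on low counts and were tested. Fgfr2 and Fgfr4 did not pass. Fgf7, Fgf10 and Fgf21 passed through the Tumor libraries alone and so had to be higher there, and no share or median over the members that passed is used as evidence.

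FGFs are secreted proteins that bind receptor tyrosine kinases on the cell surface, together with heparan sulfate or, for the endocrine members such as FGF21, with a klotho protein. The bound receptors pair and phosphorylate each other, and the signal runs through FRS2, GRB2 and SOS to the RAS-MAPK cascade, and also through PI3K and PLC gamma. MAPK signalling then induces feedback inhibitors of the Sprouty and DUSP families and ETS factors such as ETV4 and ETV5. FGF2 is a classical growth factor for melanocytes in culture, while FGF7 and FGF10 are made by mesenchymal cells and act mainly on epithelia.

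RNA was sequenced in 12 libraries of B16F10, a melanoma line from C57BL/6 mice, in 4 groups of 3 libraries. WT was the untreated line in culture. The relapsed lines (ITF1, Rel and ITM) were B16F10 cells sorted from subcutaneous tumors that had grown back after immunotherapy and then cultured to confluency. Lyso was B16F10 incubated with lysosomes derived from T cells, for 48 h by the labels, although the study's methods give a shorter incubation with secreted T cell granules on a low-adherence plate. Tumor (Tumor 1, Tumor 3 and Tumor 4) was cells sorted by FACS from such relapsed tumors, with RNA taken at once. The labels give the mice as 6 weeks old and do not name the immunotherapy, which in the methods is anti-CD40, TNFα and anti-TRP1 antibody or transferred T cells. No sorted cells from untreated tumors were analysed here, so growth in a mouse, immunotherapy and sorting cannot be told apart in Tumor. All groups share the parental line, the relapsed lines are 3 separate lines with 1 library each, and the labels do not say whether the other libraries are separate cultures or animals. The p-values therefore measure the spread between these libraries, which may be technical.

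Counts on genes ranged from 10895611 to 16402629 in WT 3, the relapsed lines and Lyso, from 3102442 to 5049496 in Tumor, and were 1667398 in WT 1 and 2350129 in WT 2. The 3 counts taken as the limit of detection were worth 1.70 CPM in WT 1, 1.27 CPM in WT 2 and 0.177 CPM in WT 3, where CPM is the count scaled to a common library size with TMM factors. Such limits cover counting error only. Tests are edgeR's quasi-likelihood test in 1 fit of all 12 libraries, and a gene was called at a Benjamini-Hochberg adjusted p under 0.05 with an absolute log2 fold change over 1.

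The melanoma identity of the cells was checked with 10 melanocyte genes, among them Pmel and Dct, which encode melanosome proteins. Their summed level was 20546 to 22660 CPM in Tumor and 19810 to 28448 CPM in WT, with 0 of 10 called between these groups by edgeR. It was 23156 to 37434 CPM in the relapsed lines and 29870 to 30651 CPM in Lyso, above every Tumor library. Against the relapsed lines 1 of the 10 was called higher in Tumor and 2 lower, where 8.36% and 2.31% of all genes tested were. Against Lyso 0 were called higher and 1 lower, where 8.78% and 4.14% were. Markers of other cell types moved with Tumor. All 10 fibroblast markers were called higher there than in WT, and their sum was 7707 to 10709 CPM in Tumor against at most 39.5 CPM in WT, 19.9 to 31.2 CPM in the relapsed lines and 15.1 to 18.0 CPM in Lyso. Col1a1, a fibrillar collagen gene, averaged 2224 CPM in Tumor and 4.35 CPM in WT, and Pdgfra, a receptor of mesenchymal cells, 43.3 and 1.28 CPM. All 7 tested endothelial markers of 8 and 3 of 5 tested leukocyte markers of 10 were also called higher, where 8.56% of all genes tested were. The 7 endothelial markers, the leukocyte marker Adgre1 and the fibroblast markers Col3a1, Dcn, Lum and Fap passed the filter through Tumor alone. They had to be higher there, so these counts are not evidence by themselves. The sums cover all genes of a list, tested or not. Pecam1, an adhesion molecule of endothelium, averaged 5.61 CPM in Tumor and 0.357 CPM in WT. The endothelial sum was 26.1 to 33.0 CPM in Tumor and at most 1.06 CPM in WT, and the leukocyte sum 31.5 to 53.7 and 8.87 to 12.6 CPM. Keratinocyte markers did not reach the filter (0 of 8 tested), with a sum of at most 3.29 CPM in Tumor, and Krt5 and Krt14 had at most 2 counts in any library. Of the other lists, 1 of 8 adipocyte genes, Fabp4, was tested and called higher, while Adipoq was not tested. Of 3 tested skeletal muscle genes (of 8), 1, Ckm, was called higher. Fabp4 and Ckm passed the filter through Tumor alone. In these bulk samples fewer cells of a type and less RNA per cell cannot be told apart, and the part of these cells in the FGF results was not tested.

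**Figure D1:**
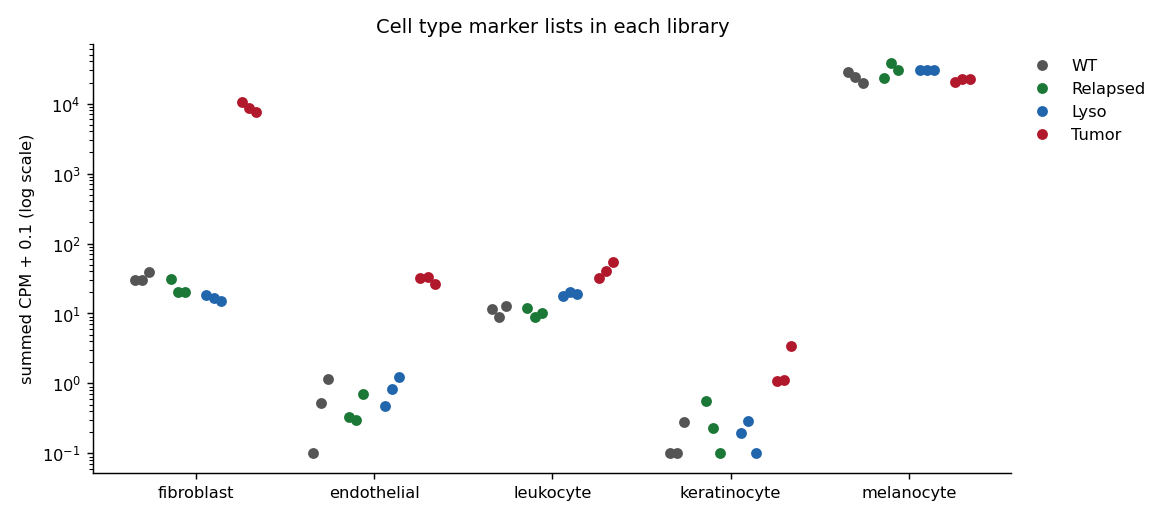
Summed CPM of 5 marker lists in each library, plotted as CPM + 0.1 on a log axis, with 1 point per library coloured by group. The fibroblast sum lies between 7707 and 10709 CPM in the 3 Tumor libraries and at or below 39.5 CPM in the 9 cultured ones, while the melanocyte sum lies between 19810 and 37434 CPM throughout.

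Between Tumor and WT, Fgfr1, Fgf2, Fgf7, Fgf10 and Fgf21 were called higher in Tumor and Fgfr3 was called lower, so that 5 of the 9 genes were called higher and 1 lower, where 8.56% of the 14924 genes tested were called higher and 2.20% lower. Fgfrl1 was not called, and Fgfr2 and Fgfr4 were too low to test. Of the 5, Fgf7, Fgf10 and Fgf21 passed the filter through Tumor alone and had to be higher, so this count is not evidence. The shares cover tested genes only. Over all 9 genes, in a fit without the filter, the median log2 fold change was 3.40, against 0.00 over the 28974 genes of that fit. That median is the value of Fgfr2, on 8 summed counts in Tumor and 1 in WT. It rests on a gene near the limit of detection and is no result about the set.

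Fgfr1 encodes a receptor for FGF2 that is widely used by mesenchymal cells (ENSMUSG00000031565, GRCm38 chromosome 8, 25513654 to 25575718, plus strand). Its level was 1.13, 2.96 and 1.65 CPM in WT 1, WT 2 and WT 3, on 2, 7 and 28 counts. In Tumor 1, Tumor 3 and Tumor 4 it was 51.4, 40.1 and 33.9 CPM, on 158, 199 and 144 counts. Every Tumor library was far above every cultured library, and the groups did not overlap. The difference was a log2 fold change of 4.50 (SE 0.43, edgeR adjusted p = 1.62e-05), or 22.7-fold. The relapsed lines had 4.61 (ITF1), 5.62 (Rel) and 1.86 CPM (ITM), and the Lyso libraries 0.660, 1.03 and 0.972 CPM. The order of the group means was thus Tumor (41.8 ± 8.86 CPM, SD, n = 3), relapsed lines (4.03 ± 1.95), WT (1.91 ± 0.940) and Lyso (0.886 ± 0.197). Tumor and the relapsed lines differed by a log2 fold change of 3.37 (SE 0.34, edgeR adjusted p = 1.95e-05), whereas neither the relapsed lines and WT (edgeR adjusted p = 0.379) nor WT and Lyso (adjusted p = 0.314) were called apart. An antisense gene, Gm16159, shares 164 exonic bases (1.66%) with Fgfr1 and had 7, 6 and 4 counts in Tumor 1, Tumor 3 and Tumor 4 and at most 2 in any other library.

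Fgfr3 encodes a receptor best known as a brake on bone growth (ENSMUSG00000054252, chromosome 5, 33721674 to 33737068, plus strand), and it ran the other way. It stood at 1.70, 13.1 and 14.9 CPM in WT 1, WT 2 and WT 3, on 3, 31 and 252 counts. Tumor 1, Tumor 3 and Tumor 4 had 2.93, 1.21 and 0.706 CPM, on 9, 6 and 3 counts. WT 1, the shallowest library, lay within the Tumor range, so the groups overlapped, and the other WT libraries were above all of Tumor. The fitted difference was lower in Tumor (log2 fold change -2.89, SE 0.83, edgeR adjusted p = 0.0284). Leaving out Tumor 1 moved the log2 fold change to -3.50 (edgeR adjusted p = 0.0435). Leaving out WT 2 (adjusted p = 0.057), WT 3 (0.161), Tumor 3 (0.107) or Tumor 4 (0.107) ended the call in edgeR, while leaving out WT 1 gave 0.00968, and the direction held in each.

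In the other cultured groups Fgfr3 reached its highest levels. The Lyso libraries had 25.5, 29.99 and 28.1 CPM and the relapsed lines 5.84 (ITF1), 22.3 (Rel) and 36.9 CPM (ITM). Every one of these 6 libraries was above every Tumor library. Against Tumor the log2 fold changes were -4.21 from Lyso (SE 0.78, edgeR adjusted p = 0.00169) and -3.86 from the relapsed lines (SE 0.78, adjusted p = 0.00365). Without Tumor 1 they were -4.83 and -4.46, and without ITM the difference from the relapsed lines was -3.24, each still called. The order of the means was Lyso (27.9 ± 2.23 CPM, SD, n = 3), relapsed lines (21.7 ± 15.5), WT (9.88 ± 7.14) and Tumor (1.61 ± 1.16), and of the neighbours in this order only WT and Tumor were called apart in edgeR. A gene on the opposite strand, G630022F23Rik, shares 998 exonic bases (13.9%) with Fgfr3. It had 1, 6 and 15 counts in WT 1, WT 2 and WT 3. Tumor 1, Tumor 3 and Tumor 4 had 1, 1 and 0 (log2 fold change -2.74, edgeR adjusted p = 0.115). The Lyso libraries had 15, 18 and 19 counts, and the relapsed lines 2 (ITF1), 16 (Rel) and 27 (ITM). With no strand setting given, reads from the shared bases cannot be assigned to one gene or the other.

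Per kilobase of exon, the receptor genes changed places. Fgfr1 made up 32.6%, 13.3% and 7.07% of the summed CPM per kb of Fgfr1, Fgfr2, Fgfr3 and Fgfr4 in WT 1, WT 2 and WT 3, and 92.2%, 94.3% and 93.6% in Tumor 1, Tumor 3 and Tumor 4. In Lyso its share was 1.79% to 2.42%, and in the relapsed lines 34.4% (ITF1), 15.3% (Rel) and 3.49% (ITM). Fgfr3 held most of the remainder in every cultured library, at 60.2% to 96.5%. Counts of Fgfr1 per count of Fgfr3, which need no scaling between libraries, were 17.6, 33.2 and 48.0 in Tumor and at most 0.789 in the 9 cultured libraries. The Tumor ratios rest on 9, 6 and 3 counts of Fgfr3, the last at the limit of detection. The summed level of the 4 receptors was 3.67 to 5.64 CPM per kb in Tumor, 3.73 to 4.36 in Lyso and 1.35 to 5.39 in the relapsed lines, ranges that overlapped. In WT 1, WT 2 and WT 3 it was 0.352, 2.25 and 2.37 CPM per kb, below every Tumor library. The WT 1 values rest on 2 counts of Fgfr1 and 3 of Fgfr3, so its shares and its place in this order are not a result.

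**Figure D2:**
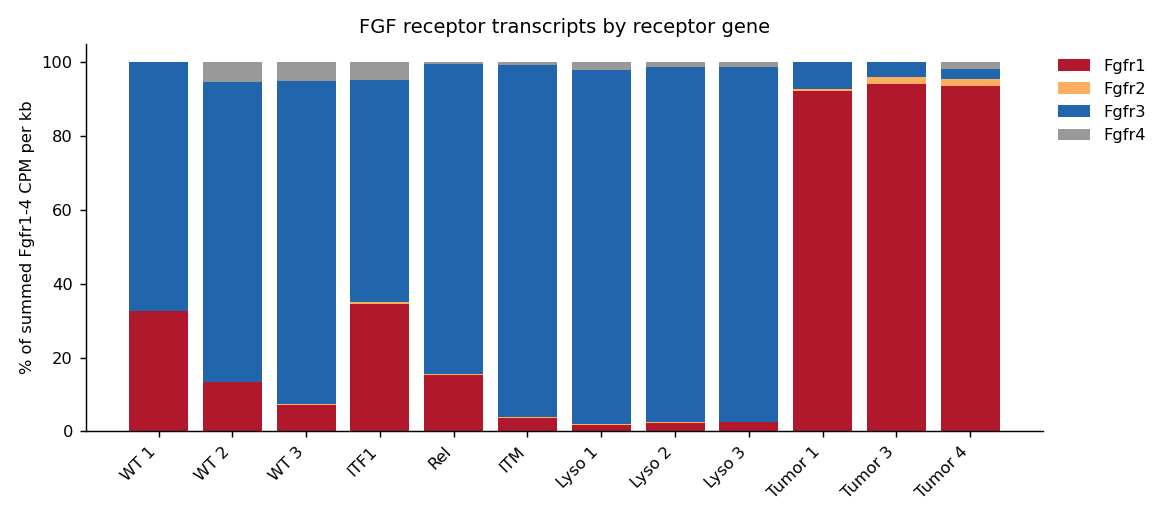
Share of each receptor gene in the summed CPM per kb of Fgfr1, Fgfr2, Fgfr3 and Fgfr4, as stacked bars from 0 to 100%, 1 bar per library. Fgfr1 fills 92.2% to 94.3% of the bar in the Tumor libraries and at most 34.4% in the cultured ones, where Fgfr3 is the larger part.

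Fgfr2 (ENSMUSG00000030849, chromosome 7, minus strand), the receptor whose epithelial form binds FGF7 and FGF10, had at most 4 counts in any library. Its mean was 0.612 CPM in Tumor and at most 0.128 CPM in a cultured group. In a fit without the filter on low counts it was higher in Tumor than in Lyso (edgeR adjusted p = 0.0355), on 8 and 2 summed counts. Fgfr4 (ENSMUSG00000005320, chromosome 13, plus strand), a receptor used by FGF19-type hormones in liver, had at most 7 counts in any library, and no difference was detectable at this depth.

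Fgfrl1 encodes a receptor-like protein that binds FGFs but has no tyrosine kinase domain (ENSMUSG00000008090, chromosome 5, 108692382 to 108706924, plus strand). WT libraries had 20.4, 21.5 and 25.1 CPM, and Tumor libraries 23.4, 18.3 and 16.01 CPM. These ranges overlapped, and the log2 fold change was -0.25 (95% interval -0.84 to 0.34, edgeR adjusted p = 0.580). Lyso libraries had 27.1, 26.6 and 28.1 CPM, just above all of WT, with a log2 fold change of 0.26 (95% interval -0.30 to 0.83). The relapsed lines spread from 12.2 CPM (ITM) to 29.0 CPM (Rel). None of the 6 comparisons called it in edgeR, and none gave an unadjusted p under 0.05.

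**Figure D3:**
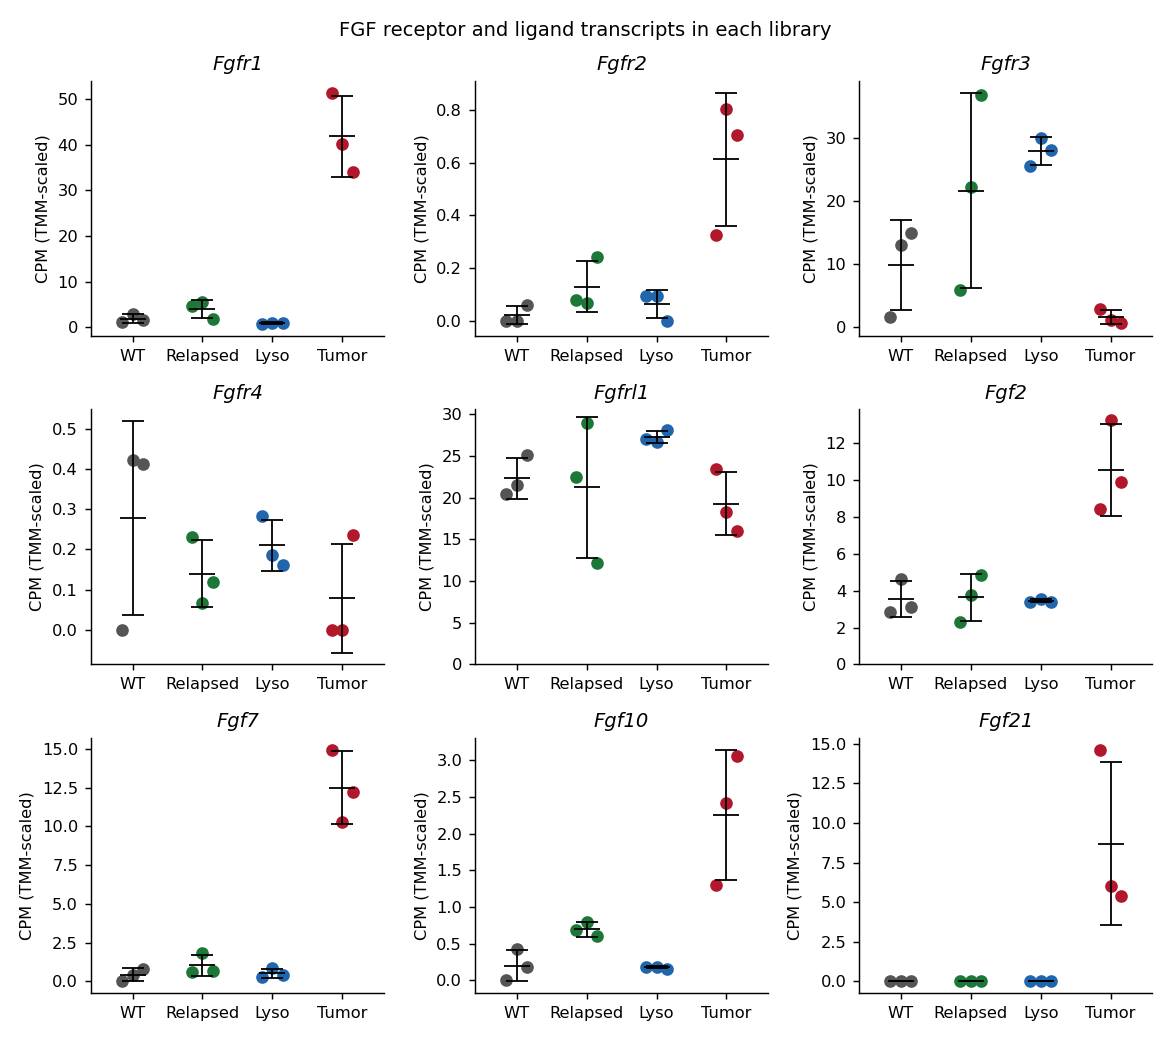
TMM-scaled CPM of the 9 genes in each library (points), with the group mean (horizontal line) and SD (whiskers), n = 3 per group, each panel with its own linear axis. Fgfr1, Fgf2, Fgf7, Fgf10 and Fgf21 are highest in every Tumor library, Fgfr3 is at most 2.93 CPM there, and Fgf21 has no count in any of the 9 cultured libraries.

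Among the ligands, Fgf2 was the one above the limit of detection in all 12 libraries (ENSMUSG00000037225, chromosome 3, 37348346 to 37410108, plus strand). It stood at 2.83, 4.64 and 3.13 CPM in WT 1, WT 2 and WT 3, and at 8.45, 13.3 and 9.89 CPM in Tumor 1, Tumor 3 and Tumor 4. All Tumor libraries were above all WT libraries. The log2 fold change was 1.62 (SE 0.33, edgeR adjusted p = 0.00403), or 3.08-fold, and a test against a log2 fold change of 1 (glmTreat) did not call it (adjusted p = 0.149). The cultured groups were nearly level, with 3.45 ± 0.0820 CPM in Lyso, 3.63 ± 1.28 in the relapsed lines and 3.53 ± 0.974 in WT (SD, n = 3). Nudt6, an antisense partner that shares 640 exonic bases (9.44%) with Fgf2, was not called in Tumor (log2 fold change 0.42, edgeR adjusted p = 0.384), and without a strand setting the reads of the overlap cannot be divided.

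Fgf7 encodes keratinocyte growth factor, a mesenchymal signal to epithelium (ENSMUSG00000027208, chromosome 2, 126034658 to 126091185, plus strand). WT 1, WT 2 and WT 3 had 0, 1 and 14 counts, up to 0.826 CPM. The Tumor libraries had 46, 51 and 52 counts, or 14.9, 10.3 and 12.2 CPM. Fgf7 passed the filter through Tumor alone and had to be higher there, so the values below describe size and are not evidence. The groups did not overlap, and the log2 fold change was 4.22 (SE 0.57, edgeR adjusted p = 0.00026). Without WT 3, which holds 14 of the 15 WT counts, it was 5.61 and still called (adjusted p = 0.00275). The relapsed lines had 0.614, 1.81 and 0.659 CPM (ITF1, Rel and ITM) and the Lyso libraries 0.283, 0.838 and 0.405 CPM, all below the lowest Tumor library.

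Fgf10, a close relative of Fgf7 required for limb and lung buds (ENSMUSG00000021732, chromosome 13, 118669791 to 118792115, plus strand), was lower in level. WT libraries had 0, 1 and 3 counts, and Tumor libraries 4, 12 and 13 counts (1.30, 2.42 and 3.06 CPM). The counts in WT were at or under the limit of detection in each library, so the log2 fold change of 3.50 (SE 0.56, edgeR adjusted p = 0.000883) rests on few reads. Fgf10 too passed the filter through Tumor alone, so its calls in Tumor are not evidence. The relapsed lines had 0.691, 0.803 and 0.599 CPM (ITF1, Rel and ITM), between WT and Tumor, and Tumor was higher than they were (log2 fold change 1.72, SE 0.38, edgeR adjusted p = 0.00685). Without Tumor 4 that call was lost (log2 fold change 1.45, adjusted p = 0.0563).

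Fgf21 encodes an endocrine FGF known from liver and as a gene induced by amino acid and mitochondrial stress (ENSMUSG00000030827, chromosome 7, 45613886 to 45615490, minus strand). It had no count in any of the 9 cultured libraries. Tumor 1, Tumor 3 and Tumor 4 had 45, 30 and 23 counts, or 14.6, 6.04 and 5.41 CPM. Set against a limit of 3 counts over each group, Fgf21 was at least 56.0-fold higher in Tumor than in WT, at least 119-fold higher than in the relapsed lines and at least 89.5-fold higher than in Lyso. These bounds scale with the depth of the control libraries. In a check chosen after seeing the data, the bound against WT fell to 10.99-fold without WT 3, the bound against the relapsed lines to 79.0-fold without Rel and 74.3-fold without ITM, and the bound against Lyso to 56.7-fold without Lyso 3. Fgf21 was called in all 3 comparisons by edgeR (adjusted p = 0.00239, 0.000642 and 0.000758) and in none by DESeq2 (adjusted p = 0.254, 0.117 and 0.122). It passed the filter through Tumor alone and had to be higher there, so the edgeR calls are not evidence. Both klotho genes, whose proteins FGF21 and the other endocrine FGFs use as co-receptors, were at most at 3 counts in any library and at 0 in all 3 Tumor libraries (Kl and Klb).

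The upstream sequences of the 3 ligand genes that were near or at 0 in culture are shown, since these genes were called together in Tumor. All 3 passed the filter through Tumor alone, so those calls are not evidence. RefSeq windows (GRCm38.p6) were found for 8 of the 9 genes, Fgfr1 being the exception, and the bases before the start site are printed 5′ to 3′ on the gene's strand. They lie at chr7:45615491-45615740 on the minus strand for Fgf21, chr2:126034408-126034657 on the plus strand for Fgf7 and chr13:118714449-118714698 on the plus strand for Fgf10. None of the bases overlaps an annotated exon, and the Fgf10 window is inside the span of the gene as GENCODE annotates it. Capitals mark matches to 5 motifs searched on both strands: TTCNNNGAA (STAT), TGACTCA (AP-1), TTGCATCA (an ATF4 and C/EBP composite), GCGNGGGCG (EGR) and TATAAA (the core promoter box bound by TBP).
Fgf21: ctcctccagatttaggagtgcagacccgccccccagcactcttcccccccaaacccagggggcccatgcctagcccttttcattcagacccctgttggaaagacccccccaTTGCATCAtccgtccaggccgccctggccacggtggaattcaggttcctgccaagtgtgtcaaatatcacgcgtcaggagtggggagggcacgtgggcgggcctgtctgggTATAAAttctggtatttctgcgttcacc
Fgf7: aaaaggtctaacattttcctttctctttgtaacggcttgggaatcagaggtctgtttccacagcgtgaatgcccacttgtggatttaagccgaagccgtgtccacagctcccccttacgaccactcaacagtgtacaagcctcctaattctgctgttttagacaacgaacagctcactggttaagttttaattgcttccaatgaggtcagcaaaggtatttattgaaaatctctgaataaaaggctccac
Fgf10: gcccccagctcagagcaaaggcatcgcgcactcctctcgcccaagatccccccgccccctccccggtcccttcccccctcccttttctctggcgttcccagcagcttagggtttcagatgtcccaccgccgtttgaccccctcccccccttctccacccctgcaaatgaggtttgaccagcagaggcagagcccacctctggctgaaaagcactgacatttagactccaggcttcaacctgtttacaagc
The Fgf21 sequence held TTGCATCA, starting 139 bases before the start site, and TATAAA, starting 28 bases before it. Of all 32851 RefSeq windows cut to the same 250 bases, 0.791% held TTGCATCA and 12.4% TATAAA, while 7.02% held TTCNNNGAA, 4.46% TGACTCA and 4.70% GCGNGGGCG. The Fgf7 and Fgf10 sequences held no match to the 5 motifs, which says only that these letters are not in these windows. Among the windows not shown, GCGNGGGCG matched in those of Fgf2, Fgfr3 and Fgfrl1, and no other motif matched. The Fgf2 and Fgfr3 windows lie on annotated exons.

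**Figure D4:**
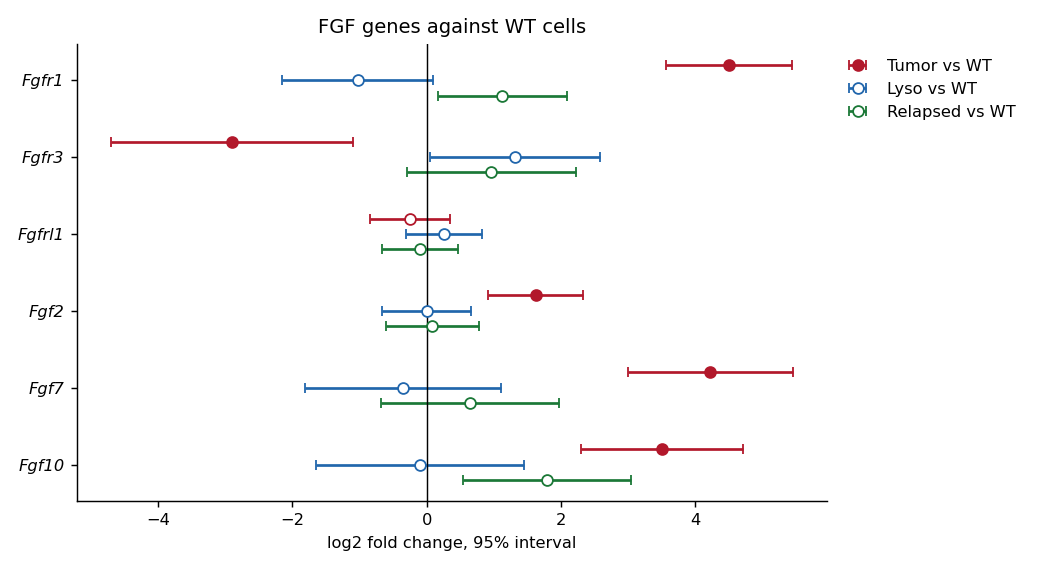
Log2 fold changes against WT (points) with 95% intervals (whiskers) for 6 of the 7 tested genes, leaving out Fgf21, which has no count in WT, in Tumor, Lyso and the relapsed lines, 3 libraries per group. Filled points were called by edgeR, and those are Fgfr1, Fgf2, Fgf7 and Fgf10 (higher) and Fgfr3 (lower) in Tumor, with no filled point for Lyso or the relapsed lines.

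In cells incubated with T cell lysosomes, 0 of the 9 genes were called against WT by edgeR, where 2.43% of all genes tested were called higher and 0.576% lower. DESeq2 also called 0, and 1 member had an unadjusted p under 0.05. That gene was Fgfr3, which was higher in all 3 Lyso libraries than in any WT library (log2 fold change 1.32, 95% interval 0.06 to 2.58, edgeR adjusted p = 0.249), and which a fit without the filter on low counts called (adjusted p = 0.00283). Fgfr1 was lower in all 3 Lyso libraries than in any WT library (log2 fold change -1.03, 95% interval -2.15 to 0.09). The lowest WT value, 1.13 CPM in WT 1, rests on 2 counts, under the limit of detection, so this order is not a result. Fgf2 had a log2 fold change of 0.00 (95% interval -0.66 to 0.66). For Fgf7 and Fgf10 the intervals were wider, at -1.82 to 1.10 and -1.65 to 1.45, and Fgf21 was at 0 in both groups. Of 5 tested leukocyte markers, Ptprc and Cd8a were called higher in Lyso, and Cd8a passed the filter through Lyso alone. Csf1r and Adgre1 were not called, and Lyz2 ran lower without a call (log2 fold change -0.77). The leukocyte sum was 17.8 to 20.4 CPM against 8.87 to 12.6 CPM in WT. Most of it was Csf1r, at 12.1 CPM in Lyso and 8.86 CPM in WT on average. Ptprc, the pan-leukocyte antigen CD45, averaged 2.94 CPM in Lyso and 0.141 CPM in WT, and the part of such RNA in these results was not tested.

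The relapsed lines also had 0 of 9 genes called against WT by edgeR, where 0.0402% of all genes were called in either direction. DESeq2 called 0 as well, and 2 members had an unadjusted p under 0.05. Fgf10 was above WT in all 3 lines (log2 fold change 1.79, 95% interval 0.54 to 3.04, edgeR adjusted p = 0.306). WT 1, WT 2 and WT 3 had 0, 1 and 3 counts, at or under the limit of detection, so this order is not a result. Fgfr1 was higher in ITF1 and Rel than in any WT library, while ITM lay within the WT range (log2 fold change 1.13, 95% interval 0.17 to 2.09). Without ITM it was called (log2 fold change 1.49, edgeR adjusted p = 0.0429). The lines also differed among themselves, with Fgfr3 lowest and Fgfr1 high in ITF1, and Fgfr3 highest and Fgfr1 lowest in ITM.

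Tumor also stood apart from the other cultured groups. Against the relapsed lines 5 genes were called higher and 1 lower, where 8.36% of all genes were called higher and 2.31% lower. Against Lyso 5 were called higher and 1 lower, where 8.78% were called higher and 4.14% lower. These comparisons share the Tumor libraries with the one against WT and are not independent of it. In both, the 5 included Fgf7, Fgf10 and Fgf21, which passed the filter through Tumor alone, so these counts are not evidence either. Fgfr1 was 46.2-fold higher in Tumor than in Lyso (log2 fold change 5.53, SE 0.41, edgeR adjusted p = 1.37e-06), and Fgf7 23.9-fold higher (4.58, SE 0.51, adjusted p = 4.28e-05). The Fgf7 values describe size only, because of the filter. Between Lyso and the relapsed lines, Fgfr1 and Fgf10 were lower in Lyso and 0 genes were higher, so that 2 of 9 were called lower, where 1.04% of all genes were. The log2 fold changes were -2.16 for Fgfr1 (SE 0.41, edgeR adjusted p = 0.00741) and -1.89 for Fgf10 (SE 0.48, adjusted p = 0.033). The Fgf10 call rested on 2 counts in each Lyso library. Leaving out any Lyso library, ITF1 or Rel ended it, with adjusted p from 0.0619 (without ITF1) and 0.0856 (without Rel) to 0.111, 0.121 and 0.137 (without Lyso 1, Lyso 2 and Lyso 3).

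The rest of the pathway was read from a list of 73 genes in 4 roles, of which 51 were tested. In Tumor against WT 9 of the 51 were called higher and 1 lower by edgeR, where 8.56% of all genes tested were called higher and 2.20% lower. Of the 9, Gpc3, Gpc4 and Flrt2 passed the filter through the Tumor libraries alone and so had to be higher there. In Lyso 1 was called higher and 0 lower, where 2.43% and 0.576% of all genes were, which is close to the background and no result about the list. In the relapsed lines 0 were called in either direction. The 25 intracellular transducers, such as the adaptor, RAS and MAPK genes, were all tested and 0 were called in any of these 3 comparisons. Their median log2 fold change in Tumor was -0.04, against 0.00 over all genes tested.

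Of the 18 other Fgf genes 2 were tested, and 0 were called against WT in any group. Fgf1, the ligand that binds every FGF receptor, averaged 11.7 ± 8.38 CPM in WT, 9.81 ± 5.94 in the relapsed lines, 5.33 ± 0.796 in Lyso and 10.2 ± 1.01 in Tumor (SD, n = 3). Fgf20 averaged 1.004 CPM in WT and 1.53 CPM in Tumor. Neither was called, with edgeR adjusted p = 0.912 for Fgf1 and 0.716 for Fgf20 in Tumor. Fgf3, Fgf4, Fgf5, Fgf6, Fgf12, Fgf14 and Fgf15 had no count in any library. The means of Fgf8, Fgf9, Fgf11, Fgf13, Fgf16, Fgf17, Fgf18, Fgf22 and Fgf23 were at most 0.829 CPM in any group, with Fgf18 in Tumor the highest of them.

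Among 16 co-receptors and binding proteins, 11 were tested, and 3 were called higher and 1 lower in Tumor against WT. Gpc3 and Gpc4 encode glypicans, which carry heparan sulfate on the cell surface, and Flrt2 encodes a membrane protein that binds FGF receptors. Gpc3 averaged 31.1 ± 4.30 CPM in Tumor and 0.0197 CPM in WT, Gpc4 3.29 ± 0.323 CPM and 0, and Flrt2 18.8 ± 2.25 CPM and 0 (SD, n = 3). Each had no more than 1 count in any cultured library, and passed the filter through Tumor alone. Sdc3, a syndecan, was lower, at 21.5 ± 2.18 CPM in Tumor and 42.9 ± 19.7 in WT (log2 fold change -1.03, SE 0.27, edgeR adjusted p = 0.0185). WT 1, on 36 counts, lay within the Tumor range, so the groups overlapped. The relapsed lines averaged 13.9 CPM, below Tumor, without a call against WT (log2 fold change -1.66, edgeR adjusted p = 0.059).

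The feedback inhibitors and transcriptional targets were the role with the most calls. In Tumor against WT 6 of the 13 tested (of 14) were higher and 0 lower, where 8.56% of all genes tested were higher and 2.20% lower. All 13 passed the filter without Tumor. They had a median log2 fold change of 1.40 against 0.00 over all genes tested. Dusp5, a nuclear ERK phosphatase, averaged 22.04 ± 7.39 CPM in Tumor and 1.32 ± 0.351 in WT (log2 fold change 4.23, SE 0.48, edgeR adjusted p = 7.33e-05). Spry2, a Sprouty inhibitor of receptor tyrosine kinase signalling, averaged 106 ± 14.3 and 27.4 ± 4.58 CPM (1.91, SE 0.17, adjusted p = 9e-06). The ETS factors Etv1, Etv4 and Etv5 rose together, by log2 fold changes of 2.29 (edgeR adjusted p = 0.00349), 1.98 (0.0391) and 2.16 (0.00734), and Dusp4 by 1.10 (0.0226). These genes also respond to other receptor tyrosine kinases, and the fibroblast markers given above moved with the same libraries, and their part was not tested.

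In Lyso 1 of the 13 was called higher and 0 lower, where 2.43% and 0.576% of all genes were. It was Dusp6, a cytoplasmic ERK phosphatase and a common readout of FGF signalling, at 285 ± 10.8 CPM against 95.3 ± 7.46 in WT (log2 fold change 1.58, edgeR adjusted p = 0.00996). In Tumor it averaged 179 ± 19.9 CPM and was not called (0.91, adjusted p = 0.0534). The median log2 fold change of the 13 genes was 0.65 in Lyso and -0.03 in the relapsed lines, against 0.00 and 0.01 over all genes tested. In Tumor against the relapsed lines 8 of the 13 were called higher and 0 lower, where 8.36% and 2.31% of all genes were. In Lyso against these lines 5 were higher and 0 lower, where 634 of 14924 genes were called in either direction. In Tumor against Lyso 4 were higher and 0 lower, where 8.78% and 4.14% of all genes were. Etv1 and Etv4 were not among these 4 (edgeR adjusted p = 0.176 and 0.679).

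**Figure D5:**
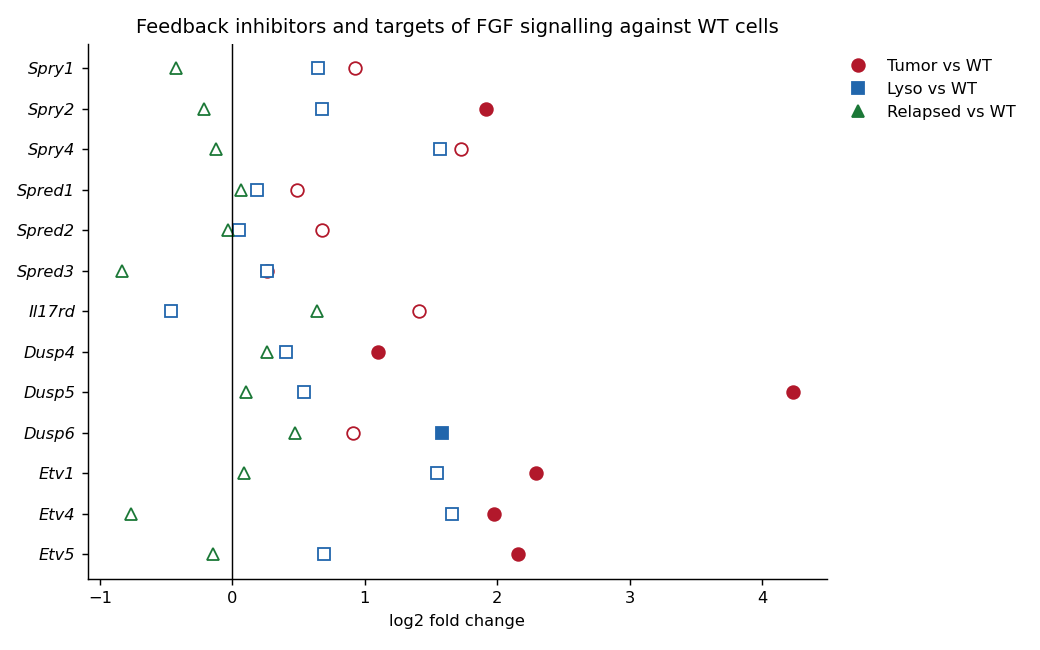
Log2 fold changes against WT of the 13 tested feedback inhibitors and targets of FGF signalling in Tumor (circles), Lyso (squares) and the relapsed lines (triangles), with filled symbols for genes called by edgeR. In Tumor 6 genes are filled, with Dusp5 farthest at 4.23, and in Lyso Dusp6 alone is filled at 1.58.

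Genes whose levels ran most like each FGF gene were ranked by Pearson's r of log2 CPM over the 12 libraries, which share the depth and group differences described above, and the values are descriptive. Closest to Fgfr1 were Phlpp1 (r = 0.972), Lamc1 (0.972) and Lamb1 (0.971), the latter 2 being laminin chain genes. Closest to Fgfr3 were Smad6 (0.966) and Id2 (0.963), which are known as BMP target genes, and Zfp952 (0.959). Smad6 averaged 23.5 CPM in WT and 2.59 CPM in Tumor, and Id2 333 and 88.6 CPM. Fgf2 ran with the collagen gene Col14a1 (0.968), Fndc3c1 (0.959) and Hlf (0.957), and Fgf7 with Man1a (0.973), Rnase4 (0.967) and Col8a1 (0.965), another collagen gene. Fgf10 ran with Cdc42bpb (0.974), Zfp868 (0.968) and Utp14b (0.962). For Fgf21 they were Medag (0.9995), Irx1 (0.999) and Tpbg (0.998), which like Fgf21 averaged 0 CPM in WT and reached 7.11, 5.01 and 5.42 CPM in Tumor. Fgfrl1 had weaker companions, with Chp1 (0.884), Hcn2 (0.884) and Anxa9 (0.864).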

How the data were processed

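Per the labels, RNA was extracted from B16F10 cells of 4 groups with 3 libraries each. The authors trimmed reads with fastp 0.19.6, aligned them to GRCm38 with STAR 2.7.1a and deposited raw counts per gene without normalization. The strand setting is not given in the sources used here. Rows that name no gene held 60.64% to 63.83% of the reads of a library and were left out. Symbols, positions and exonic lengths came from GENCODE M21 (54165 of 54232 identifiers matched).

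From the counts, edgeR 4.0.16 in R 4.3.3 was run as stated in the report: filterByExpr by group, TMM scaling, Benjamini-Hochberg adjustment. Each SE was obtained by dividing the absolute log2 fold change by √F. The 9 genes, the pathway and marker lists were chosen with earlier results of these data known. Outside the 9, pathway genes are named if called against WT, or if another Fgf gene or a klotho gene. Also named are 10 marker genes and, for each FGF gene tested, the 3 genes most alike in pattern. Those 3 were sought among genes of at least 1 CPM on average, with a prior count of 2. Further marker genes are named for the filter or for the leukocyte sum, chosen after their values were seen. Of the genes whose exons overlap one of the 9, those antisense to Fgfr1, Fgfr3 and Fgf2 are named, chosen after their values were seen. The test code was checked on counts simulated with the same spread for every gene. That check does not cover the spread between these libraries. Tried as alternatives were DESeq2 1.42.0, RLE or library-size scaling, no or a stricter filter (minimum count 30), only the compared groups, a replicate block, the adjusted p alone, glmTreat, thinning to the shallowest library, WT 3 as the only control, and each library left out. No pairing of the libraries was seen for the replicate numbers that WT, Lyso and Tumor share. Promoters were read from RefSeq with Python 3.11.15.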

Additional observations from a re-analysis of the deposited data

How the results depend on the processing

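For Tumor against WT, 6 of the 9 FGF genes were called, and the count stayed within 4 to 6 except after thinning every library to the shallowest, where it was 3 (Fgfr1, Fgf2 and Fgf7) and Fgf10 and Fgf21 no longer passed the filter. Leaving out each library gave 5 to 6. Fgfr3 lost its call in 7 alternatives, with an adjusted p of 0.147 under glmTreat, 0.101 after thinning and 0.0579 with a replicate block. With the replicate number as a block, 4 FGF genes were called in Tumor against WT, with Fgfr3 lost and Fgf10 not tested, and 1191 of 13084 genes against 1607 of 14924, and no other call of an FGF gene tested in both fits changed. The 7 pairs of libraries with the same number correlated at -0.00809 to 0.0649. No pairing was seen, but such correlations cannot exclude a shared batch. The count of FGF genes called in Lyso against WT was 1 without the filter on low counts. In the relapsed lines against WT it was 0 to 1 when each library was left out. In Lyso against the relapsed lines, 2 in the main result, it was 1 under DESeq2, without the filter, with the stricter filter and with only the groups compared, 0 under glmTreat and after thinning, and 1 to 2 when each library was left out. The cause of these changes was not tested.

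Small values that were not called changed sign. The log2 fold change of Fgf2 in Lyso against WT was -0.001 under RLE factors, -0.093 with library size as the only scaling, -0.013 without the filter and -0.004 with the stricter one, and -0.14 to 0.17 when each library was left out. With each library left out, Fgf10 ran from -0.40 to 0.17 and Fgf7 from -0.87 to 1.04 in Lyso against WT. In the relapsed lines against WT, Fgfrl1 was 0.15 after thinning and -0.39 to 0.18 with each library left out, Fgf2 -0.20 and -0.17 to 0.33, and Fgf7 -0.036 to 2.03 with each left out. In Tumor against the relapsed lines Fgfrl1 ran from -0.44 to 0.14. In Lyso against the relapsed lines Fgf2 was 0.23 after thinning and -0.32 to 0.18 with each left out, and Fgfr3 ran from -0.088 to 0.98. Levels per kb of Fgfr1 rose to 8.29 CPM per kb in Tumor and 0.380 in WT when the longest transcript replaced all exonic bases. At this depth 3 counts are worth 1.70 CPM in WT 1 and 0.177 CPM in WT 3, so Fgf7 and Fgf10 could not be detected in WT 1 at the levels WT 3 shows.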
